A study of Mus musculus with 2 samples.

Results

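Imprinted growth-control genes were compared in bone marrow niche cells of mice with acute graft-versus-host disease (aGVHD) and of mice that had received a transplant alone. The members were 10 genes taken by symbol, H19, Meg3, Rian, Mirg, Dlk1, Peg3, Cdkn1c, Mest, Plagl1 and Grb10, and all 10 were found among the 54532 genes of the deposited table. 6 of them had reads in both libraries, and H19, Dlk1, Rian and Mirg had none in either. The detected members were low, and Cdkn1c, the most abundant, had an FPKM (fragments per kilobase of gene length, scaled to library size) of 2.67 in the aGVHD_V library and 2.79 in the BMT library. Plagl1, Mest and Grb10 had lower values in the aGVHD_V library. Counting intervals that treat every read as independent lay below a ratio of 1 for 4 of the 6 detected members. Intervals widened because reads may not be independent included a ratio of 1 for all 6. The shares of all genes with such intervals were not computed, so neither count sets the members apart from other genes.

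The aGVHD_V library came from female CB6F1 recipients, a hybrid of C57BL/6 and BALB/c mice, that were irradiated with a repeated dose of 4.0 Gy and given nucleated marrow cells of B6.SJL mice (CD45.1+) 4 hours later, together with spleen cells of female C57BL/6 mice, which bring the donor T cells of the disease. The BMT library came from CB6F1 recipients with the same irradiation and B6.SJL marrow but without spleen cells. Irradiation and transplant were therefore shared by both groups, and no library of untreated mice was used here. The letter V of aGVHD_V is not explained in the labels, nor is the number of mice behind each library, and the cells were sorted as negative for CD45, lineage antigens and CD71 and as alive. Each group had 1 library, so no difference below has a replicate check, and no test or p-value is given.

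Imprinted genes are expressed mainly from the copy inherited from 1 parent, because DNA methylation marks laid down in the egg or the sperm persist in the offspring. Many of them act on growth before birth, with maternally expressed genes such as Cdkn1c and Grb10 restraining it and paternally expressed genes such as Igf2 promoting it, and most fall silent in many tissues after birth. In bone marrow, members of the family are known for keeping blood stem cells at rest, among them Cdkn1c, the H19-Igf2 locus and the noncoding RNAs of the Dlk1-Dio3 locus. By this background 6 members are expressed from the maternal copy (H19, Meg3, Rian, Mirg, Cdkn1c and, outside neurons, Grb10) and 4 from the paternal copy (Dlk1, Peg3, Mest and Plagl1). The deposited values are totals per gene and do not separate the parental copies, so none of the values below bears on imprinting itself.

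The sequences that identify the members with the most signal, and the microRNAs carried by a detected and by an undetected host, are shown first. Mest, which had reads, contains the microRNA gene Mir335 in the same orientation, and H19, which had none, contains Mir675. Capitals mark the seed, bases 2 to 8 of the mature RNA, which pairs with target RNAs.
mmu-miR-335-5p: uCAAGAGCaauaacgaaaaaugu
mmu-miR-335-3p: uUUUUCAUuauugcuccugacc
mmu-miR-675-5p: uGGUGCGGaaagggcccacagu
mmu-miR-675-3p: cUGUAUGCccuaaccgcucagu
The 4 seeds differ from each other. The gene rows of Mir335 and Mir675 had 0 reads in both libraries, and rows of microRNA genes had reads in 0.725% of 2207 cases in the aGVHD_V library and in 1.45% in the BMT library, so the table says little about mature microRNAs.

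RefSeq promoter windows (build GRCm38.p6, from 250 bases before to 50 bases after a transcript start) were available for 8 of the 10 members. Windows of Mest, Plagl1 and Grb10 are printed because these genes carried most of the members' reads. Capitals mark TGCCGC on either strand, the hexamer that the imprint-protecting protein ZFP57 recognises when its CpG is methylated, and on the strand shown each match reads GCGGCA.
Mest, chr6:30737800-30738099, plus strand: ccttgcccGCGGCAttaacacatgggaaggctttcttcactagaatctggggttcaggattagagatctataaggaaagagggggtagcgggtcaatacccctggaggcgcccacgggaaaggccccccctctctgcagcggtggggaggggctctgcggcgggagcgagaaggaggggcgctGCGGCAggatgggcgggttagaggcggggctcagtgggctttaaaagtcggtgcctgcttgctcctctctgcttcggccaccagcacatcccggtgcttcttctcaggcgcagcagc
Plagl1, chr10:13090582-13090881, plus strand: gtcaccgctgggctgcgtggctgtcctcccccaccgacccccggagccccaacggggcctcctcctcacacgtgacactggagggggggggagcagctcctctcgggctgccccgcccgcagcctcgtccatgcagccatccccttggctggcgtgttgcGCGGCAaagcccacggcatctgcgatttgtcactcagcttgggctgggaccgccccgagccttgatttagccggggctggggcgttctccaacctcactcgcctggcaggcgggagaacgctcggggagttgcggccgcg
Grb10, chr11:12037371-12037670, minus strand: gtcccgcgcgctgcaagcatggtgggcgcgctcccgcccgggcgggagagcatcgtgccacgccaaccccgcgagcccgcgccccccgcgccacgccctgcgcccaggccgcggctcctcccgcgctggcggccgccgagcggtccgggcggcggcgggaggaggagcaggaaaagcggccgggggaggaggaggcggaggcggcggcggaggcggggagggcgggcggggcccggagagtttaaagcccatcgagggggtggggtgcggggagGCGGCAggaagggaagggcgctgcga
The hexamer occurred at 2 places in the printed Mest window and at 1 place each in the printed Plagl1 and Grb10 windows. Of 12 windows of the members 5 held it, the others being 1 of Meg3 and 1 of Mest that overlaps the printed one. It was absent from the other Mest window, which held 8 CpG, from the other Meg3 and Grb10 windows and from those of Dlk1, Peg3, Mirg and Rian. It was present in 3813 of 32851 promoter windows of the same length (11.6%), and a match describes the letters and is not evidence of a bound site. The printed windows held 17 CpG dinucleotides for Mest, 26 for Plagl1 and 45 for Grb10, against a median of 7 over all windows. Grb10 had more CpG than 98.1% of windows. The other Grb10 window held 9 CpG, and the Rian window held 0 CpG. The table gives 1 value per gene, so which start site was used in these cells was not analysed here.

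The depth of the libraries sets what can be said. The aGVHD_V library held 11299834 recovered reads in 12310 genes and the BMT library 10869191 in 15477 genes. The most frequent single read number was 1, with 217 genes in the aGVHD_V library and 224 in the BMT library. Among genes with 4 or more reads, read numbers were most frequent around 44 in the aGVHD_V library and around 14 in the BMT library (the modal read numbers), so reads of a gene may not be independent. A pair of 95% intervals is therefore given, one that treats every read as independent and a widened one that counts each modal read number as 1 count, and both cover counting error only. The floor, the highest level that a count of 0 allows, was 3 such counts, which is 132 reads in the aGVHD_V library and 42 reads in the BMT library. All 10 members were under the floor in the aGVHD_V library, and 5 members were above it in the BMT library.

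**Figure D1:**
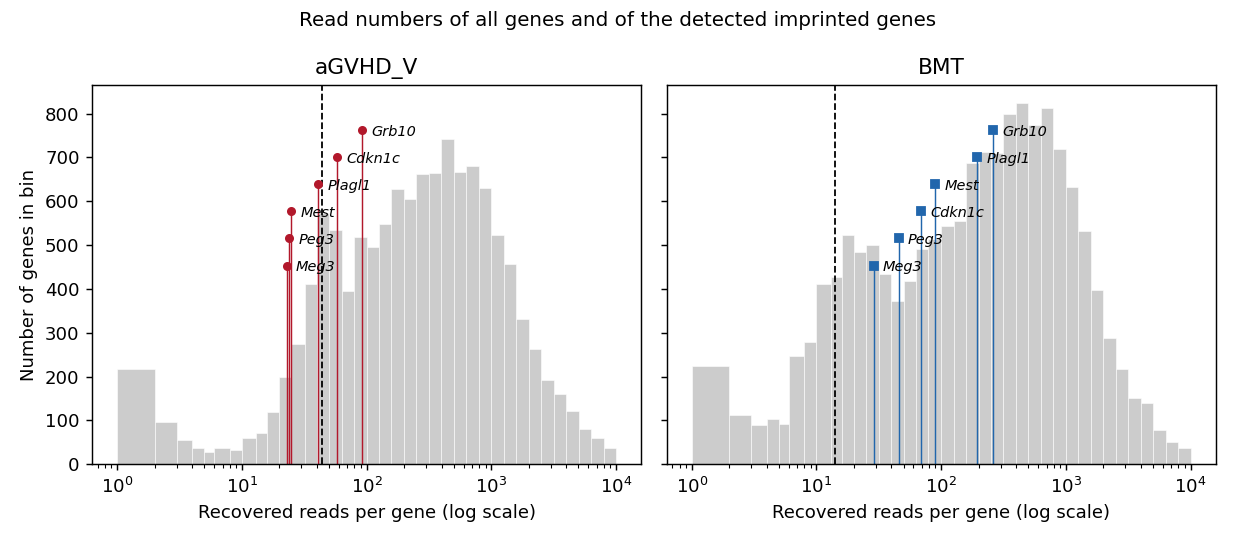
Histograms of recovered reads per gene (x axis, log scale) in the aGVHD_V library (left) and the BMT library (right), with the number of genes in each bin on the y axis. The dashed line is the modal read number among genes with 4 or more reads (44 and 14), stems mark the 6 detected members, and their heights only separate the labels. In the aGVHD_V library the members sit between 23 and 92 reads around the dashed line, and in the BMT library they lie between 29 and 261 reads, to its right.

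Cdkn1c (ENSMUSG00000037664) encodes an inhibitor of cyclin-dependent kinases that holds cells out of the cell cycle. It lies at chr7:143458339-143461050 on the minus strand of GRCm38, and its deposited length of 2039 bases equals the union of its exons in GENCODE release M21. It had 58 reads (FPKM 2.67) in the aGVHD_V library and 69 reads (FPKM 2.79) in the BMT library. The libraries thus gave nearly the same level, with an FPKM ratio of 0.956, a read-based interval of 0.663 to 1.38 and a widened interval of 0.0421 to 7.30. Cdkn1c had a higher FPKM than 30.2% of the detected genes of the aGVHD_V library and 40.4% of those of the BMT library. Being short, it reached this level on few reads, equal to 1.32 modal counts in the aGVHD_V library and 4.93 in the BMT library.

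Grb10 (ENSMUSG00000020176, chr11:11930508-12038683, minus strand) encodes an adaptor that binds activated insulin and IGF1 receptors and dampens their signal. It had 92 reads (FPKM 0.949) in the aGVHD_V library and 261 reads (FPKM 2.37) in the BMT library, the most reads of any member in both. The ratio was 0.401, with a read-based interval of 0.313 to 0.510 and a widened interval of 0.0484 to 1.63. The aGVHD_V value was therefore lower than the BMT value beyond read counting alone, but not beyond the widened error.

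Plagl1 (ENSMUSG00000019817, chr10:13060504-13131694, plus strand), also called Zac1, encodes a zinc finger transcription factor that can halt the cell cycle and regulates other imprinted genes. It had 41 reads (FPKM 0.492) in the aGVHD_V library and 195 reads (FPKM 2.06) in the BMT library. Its ratio of 0.239 was the lowest of the members, with a read-based interval of 0.166 to 0.336 and a widened interval of 0.00450 to 1.65. In the aGVHD_V library its reads amounted to 0.932 modal counts, so the low value there rests on about 1 count.

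Mest (ENSMUSG00000051855, chr6:30723547-30748465, plus strand) encodes a protein of the endoplasmic reticulum with the fold of a hydrolase and is named for its expression in mesoderm. It had 25 reads (FPKM 0.594) in the aGVHD_V library and 90 reads (FPKM 1.88) in the BMT library. The ratio was 0.316, with a read-based interval of 0.194 to 0.497 and a widened interval of 0.000612 to 3.75. The opposite-strand gene Copg2, a coat protein subunit of transport vesicles, overlaps the annotated Mest locus by 912 bases and had 330 reads in the aGVHD_V library and 332 reads in the BMT library. The labels do not say whether strand was used in counting, so reads in the overlap cannot be assigned with certainty.

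Peg3 (ENSMUSG00000002265, chr7:6703892-6730431, minus strand), a large zinc finger protein linked to cell death and to maternal behaviour in mice, had 24 reads (FPKM 0.169) in the aGVHD_V library and 46 reads (FPKM 0.285) in the BMT library. The ratio of 0.593 had a read-based interval of 0.347 to 0.993 and a widened interval of 0.000819 to 10.3. Meg3 (ENSMUSG00000021268, chr12:109541001-109571726, plus strand), a long noncoding RNA of the Dlk1-Dio3 domain, had 23 reads (FPKM 0.119) in the aGVHD_V library and 29 reads (FPKM 0.132) in the BMT library. Its ratio of 0.902 had a read-based interval of 0.499 to 1.61 and a widened interval of 0.000862 to 25.04. With an exonic length of 18.1 kb these reads amount to a very low level, below all but 1.07% of the detected genes of the aGVHD_V library and 2.77% of those of the BMT library.

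H19 (ENSMUSG00000000031, chr7:142575529-142578143, minus strand), a noncoding RNA that lies next to Igf2 and shares its enhancers, had 0 reads in both libraries. Counts of 0 allow an FPKM of up to 5.03 in the aGVHD_V library and 1.41 in the BMT library for a gene of its length. Dlk1 (ENSMUSG00000040856, chr12:109452823-109463336, plus strand) encodes a membrane protein of the Notch ligand family that holds back fat cell formation. It also had 0 reads, which allows up to 2.19 in the aGVHD_V library and 0.612 in the BMT library. Rian (ENSMUSG00000097451, chr12:109603940-109661716) and Mirg (ENSMUSG00000097391, chr12:109729764-109749460), plus-strand noncoding RNAs that host small RNAs, had 0 reads as well. The limits for Rian were 0.679 in the aGVHD_V library and 0.190 in the BMT library, and those for Mirg were 1.70 in the aGVHD_V library and 0.475 in the BMT library. Expression of these 4 genes was thus not detectable at this depth, and a level like that of Cdkn1c could have been missed for H19 in the aGVHD_V library.

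**Figure D2:**
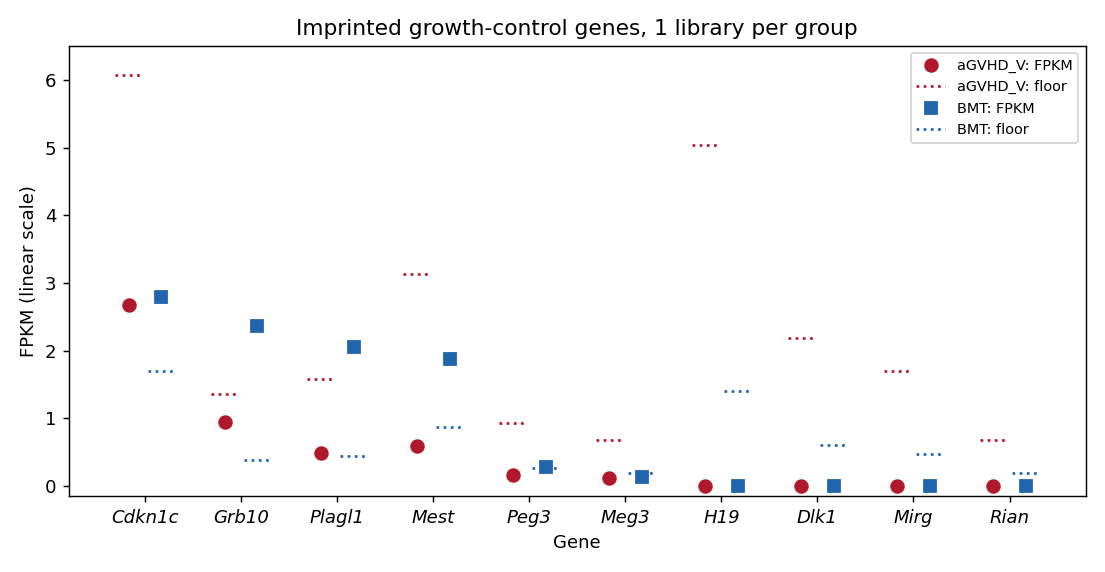
FPKM (y axis, linear) of the 10 members (x axis) in the aGVHD_V library (red circles, left of each pair) and the BMT library (blue squares), with dotted lines at the floor of each gene and library; there are no error bars because each group has 1 library. All red circles lie below their floor, between 0 and 2.67, while Cdkn1c, Grb10, Plagl1, Mest and Peg3 lie above theirs in the BMT library.

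Among themselves the members covered a range of levels in the BMT library. Cdkn1c, Grb10, Plagl1 and Mest lay between an FPKM of 1.88 and 2.79, and their widened Poisson intervals overlapped (0.897 to 6.55, 1.42 to 3.71, 1.12 to 3.46 and 0.720 to 3.99), so their order is not resolved. Peg3 (0.0646 to 0.797) was below Plagl1, Grb10 and Cdkn1c beyond these intervals but not below Mest. Meg3 (0.0169 to 0.468) was not separated from Peg3, and the remaining 4 genes were at 0. In the aGVHD_V library Cdkn1c stood first, followed by Grb10, Mest, Plagl1, Peg3 and Meg3, and the widened intervals of all 6 overlapped.

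Differences between the libraries were then set against those of all genes. A gene was called measured if either library had it at an FPKM of 1 or above, and the difference was taken as aGVHD_V minus BMT on the log2(FPKM + 1) scale, which understates the difference of low genes. Of the 4 measured members 1 was at least 2-fold lower, Plagl1 at -1.03, against 19.4% of 12942 measured genes, and none was at least 2-fold higher, against 8.65%. Mest differed by -0.85, Grb10 by -0.79 and Cdkn1c by -0.05 on that scale. All 4 passed the minimum through the BMT library, and Cdkn1c also through the aGVHD_V library, so the lower values of the other 3 in the aGVHD_V library are partly fixed by that minimum. The median difference of the 4 was -0.82, beside -0.07 over all measured genes and -0.42 over the 1213 measured genes whose higher FPKM lay in the same range of 1.88 to 2.79. Of those 1213 genes, 33.6% were lower in the aGVHD_V library by 2-fold or more, 9.81% were higher by as much, and 25.8% had no reads in the aGVHD_V library. The count of 1 in 4 members is near these shares. All 6 detected members had the lower FPKM in the aGVHD_V library, whereas 49.0% of the 11673 genes with reads in both libraries did, and 53.2% of the 2347 such genes in the members' range of levels. The read-based intervals of Cdkn1c and Meg3 included a ratio of 1, and the widened intervals of all 6 did so. How often such intervals of other genes included a ratio of 1 was not computed. The members' FPKM summed to 4.99 in the aGVHD_V library and 9.51 in the BMT library.

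**Figure D3:**
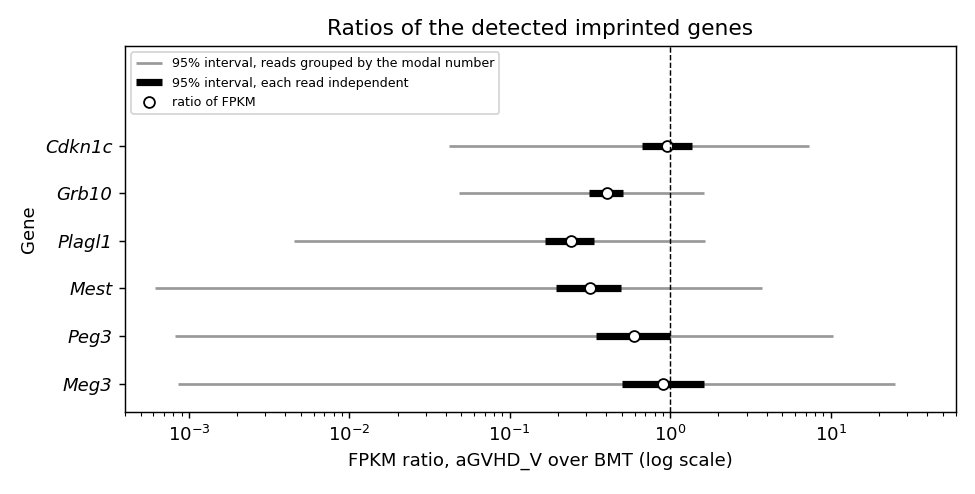
FPKM ratio of the aGVHD_V over the BMT library (x axis, log scale) for the 6 members with reads (y axis). Open circles are ratios, thick bars are 95% intervals that treat reads as independent, and thin bars are the intervals widened by the modal read numbers. The thick bars of Grb10, Plagl1, Mest and Peg3 lie below 1, those of Cdkn1c and Meg3 cross it, and all 6 thin bars cross it.

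Dlk1, Meg3, Rian and Mirg lie together in 1 domain, and most genes around them were without reads. The Dlk1-Dio3 domain on chromosome 12, which holds Dlk1, Meg3, Rian and Mirg, spans 828 kb and 118 genes of the table. Over all 54532 genes of the table, 16114 had reads in at least 1 library. Of the 118 genes of the domain, 114 had none in either. The 4 with reads were Meg3, Dio3 (an enzyme that inactivates thyroid hormone, 0 reads in the aGVHD_V library and 7 in the BMT library), Dio3os (0 reads in the aGVHD_V library and 15 in the BMT library) and the processed pseudogene Gm3379 (45 reads in the aGVHD_V library and 4 in the BMT library), the last 3 named after their values were seen. None of the 67 microRNA and 23 small nucleolar RNA genes of the domain had reads. Over the whole table, 0.725% of microRNA genes had reads in the aGVHD_V library and 1.45% in the BMT library. For small nucleolar RNA genes these shares were 0.929% in the aGVHD_V library and 2.32% in the BMT library. At the H19 end of chromosome 7, Igf2, the fetal growth factor expressed from the paternal copy, had 0 reads in the aGVHD_V library and 1 read in the BMT library. Of 13 genes from Zim1 to Usp29 around Peg3, 2 had reads, Peg3 itself and Zim1, a maternally expressed zinc finger gene with 0 reads in the aGVHD_V library and 23 in the BMT library.

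Genes around Cdkn1c differed from one another. Slc22a18, an imprinted transporter gene 12.7 kb away, had 0 reads in the aGVHD_V library and 47 reads (FPKM 2.28) in the BMT library. Kcnq1, a potassium channel, had 0 reads in the aGVHD_V library and 10 in the BMT library. The histone chaperone gene Nap1l4, 52.5 kb away, had an FPKM of 71.9 in the aGVHD_V library and 71.8 in the BMT library. The aminoacyl-tRNA synthetase gene Cars had an FPKM of 20.5 in the aGVHD_V library and 11.1 in the BMT library.

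47 other imprinted genes, from a list drawn up for this comparison, gave values of both directions. 23 were measured, of which 8 were lower in the aGVHD_V library by 2-fold or more (background 19.4%), 1 was at least 2-fold higher (background 8.65%) and 14 lay within 2-fold, with a median difference of -0.41. Nnat, Slc22a18, Ndn, Sgce and Slc22a3, 5 of those 8, were without reads in the aGVHD_V library, the last 3 named after their values were seen. Only Sgce, a membrane protein gene with 195 reads in the BMT library, had an FPKM there above its aGVHD_V floor, by 1.30-fold. That fold leaves out the counting error of the BMT value, so it is not a lower bound. The lowest difference belonged to Dcn, the matrix proteoglycan decorin of fibroblasts, which is imprinted in the placenta and had an FPKM of 1.49 in the aGVHD_V library and 21.9 in the BMT library, 14.7-fold lower (widened interval from 4.09-fold). Peg13, a brain-enriched noncoding RNA, was 7.73-fold lower, with an FPKM of 0.854 in the aGVHD_V library and 6.60 in the BMT library (widened interval from 1.25-fold). Nnat, a small membrane protein named neuronatin, had 0 reads in the aGVHD_V library and 68 (FPKM 3.07) in the BMT library. That BMT value was not above its aGVHD_V floor.

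2 imprinted genes of the distal chromosome 7 region that also holds Cdkn1c were abundant. Cd81, a tetraspanin and the gene of the list with the highest mean FPKM of the libraries, had an FPKM of 33.6 in the aGVHD_V library and 31.2 in the BMT library, with a ratio of 1.08 (widened interval 0.648 to 1.73) and a lower value (-0.47 on the log2 scale) when both libraries were given an equal FPKM sum. Tssc4, the gene at least 2-fold higher, named after its values were seen, had an FPKM of 34.8 in the aGVHD_V library and 14.6 in the BMT library, a ratio of 2.39 (1.17 to 4.74), and it was no longer past 2-fold (0.67 on the log2 scale) with the equal FPKM sum. 15 of the 47 genes had no reads in either library, whereas 16114 of the 54532 genes of the table had reads in at least 1.

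Genes that keep imprints in place or alter DNA methylation and chromatin marks ranged widely in level, and Dnmt3l and Tet1 stayed below an FPKM of 1. Of the 14 measured genes 13 lay within 2-fold, 0 were at least 2-fold lower (background 19.4%) and 1 was at least 2-fold higher (background 8.65%). The median difference of this list was 0.14, but -0.08 when library sizes were the recovered reads, and -0.40 when both libraries were scaled to the same FPKM sum. Under that equal FPKM sum Uhrf1, Dnmt1 and Suz12 turned lower (-0.31, -0.14 and -0.14). Uhrf1, which brings the maintenance methyltransferase to replicated DNA, had an FPKM of 101 in the aGVHD_V library and 83.8 in the BMT library. Dnmt1, that methyltransferase, had an FPKM of 63.4 in the aGVHD_V library and 46.7 in the BMT library, a ratio of 1.36 (widened interval 1.08 to 1.69, but 0.725 to 1.13 with the equal FPKM sum). Suz12, a subunit of the Polycomb repressive complex that methylates histone H3, had an FPKM of 55.6 in the aGVHD_V library and 41.04 in the BMT library. Tet2, an enzyme that oxidises methylated cytosine, had an FPKM of 0.695 in the aGVHD_V library and 1.46 in the BMT library. The widened interval of its ratio ran from 0.0860 to 1.64. With the equal FPKM sum Tet2 was the 1 gene of the list at least 2-fold lower (-1.16 on the log2 scale), against 33.8% of all measured genes. Zfp57, whose hexamer is marked above, had 47 reads (FPKM 1.16) in the aGVHD_V library and 0 reads in the BMT library, about 1 modal count, and no fold is given.

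Most genes of the cell cycle machinery on which Cdkn1c acts stood at far higher levels than the members. Among 14 measured CDK inhibitors, cyclins and kinases all lay within 2-fold, with a median difference of 0.23 that turned to -0.003 when library sizes were the recovered reads and to -0.32 with the equal FPKM sum. Cdkn1a passed 2-fold in the lower direction under both of these scalings (-1.13 and -1.49 on the log2 scale). Cdk4, a kinase of the early cell cycle, did so with the equal FPKM sum (-1.11 on that scale). Of all measured genes 22.8% did so with library sizes of the recovered reads and 33.8% with the equal FPKM sum. The relatives of Cdkn1c went both ways. Cdkn1a, a p53 target, had an FPKM of 19.01 in the aGVHD_V library and 36.3 in the BMT library, a ratio of 0.524 (widened interval 0.292 to 0.884), whereas Cdkn1b had 59.7 in the aGVHD_V library and 36.0 in the BMT library, a ratio of 1.66 (1.22 to 2.24). Cdkn2c, an inhibitor of CDK4 and CDK6, had a ratio of 1.70 (1.07 to 2.65). The cyclins Ccne2 and Ccna2, which act at the start of and during DNA synthesis, had ratios of 1.92 (1.15 to 3.12) and 1.57 (1.23 to 1.98). With the equal FPKM sum the widened intervals of Cdkn1b, Cdkn2c, Ccne2 and Ccna2 included 1, with lower ends of 0.817, 0.715, 0.772 and 0.825, and that of Cdkn1a (0.195 to 0.592) did not.

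Of 14 measured genes of IGF and insulin signalling, the pathway that Grb10 dampens, 1 was at least 2-fold lower (background 19.4%), 0 were higher (background 8.65%) and the median difference was -0.48. With the equal FPKM sum 8 were lower by as much, against 33.8% of all measured genes. The lower one was Irs1, the docking protein of insulin and IGF1 receptors, with 0 reads in the aGVHD_V library and 310 (FPKM 2.80) in the BMT library. Its BMT value was 2.06-fold its aGVHD_V floor, with the counting error of the BMT value left out. The ligand Igf1 had an FPKM of 1.33 in the aGVHD_V library and 3.10 in the BMT library, with a widened interval of the ratio from 0.0882 to 1.36. Ratios of Irs2 (0.585) and of the growth kinase Mtor (0.535) had widened intervals of 0.291 to 1.08 and 0.231 to 1.09. Akt1, the most abundant of the list, had an FPKM of 62.7 in the aGVHD_V library and 64.3 in the BMT library.

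Of 7 measured Notch genes, a pathway in which Dlk1 is a ligand-like protein without the usual receptor-binding domain, 2 passed 2-fold in the lower direction (background 19.4%) and 0 in the higher (background 8.65%), with a median difference of -0.65. With the equal FPKM sum 4 passed in the lower direction, against 33.8% of all measured genes. Hes1, a target of Notch signals, had an FPKM of 4.14 in the aGVHD_V library and 19.1 in the BMT library, 4.61-fold lower (widened interval from 1.20-fold). The ligand Jag1 had an FPKM of 0.708 in the aGVHD_V library and 5.14 in the BMT library, 7.25-fold lower (widened interval from 1.19-fold). Notch3, the most abundant receptor, had an FPKM of 11.4 in the aGVHD_V library and 18.5 in the BMT library. Notch4, an endothelial receptor, had an FPKM of 0.663 in the aGVHD_V library and 1.64 in the BMT library, with a widened interval of the ratio from 0.0191 to 2.35.

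**Figure D4:**
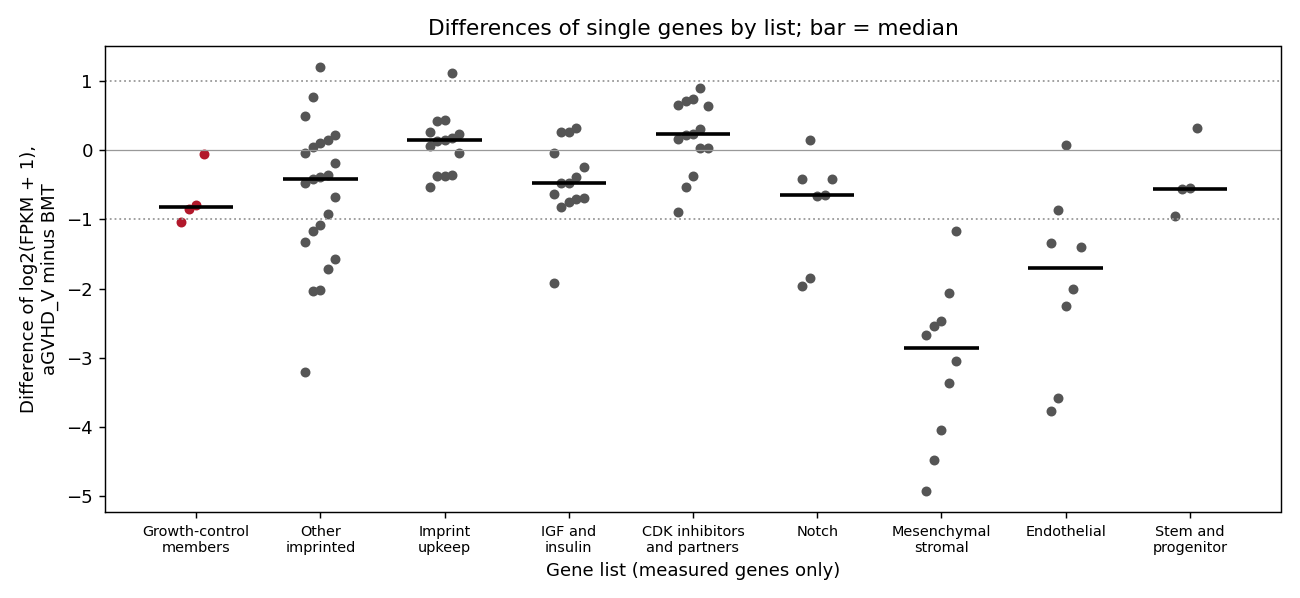
Difference of log2(FPKM + 1), aGVHD_V minus BMT (y axis), of each measured gene in 9 lists (x axis), with the median of each list as a bar and dotted lines at a 2-fold difference. The 4 measured members (red) run from -1.03 to -0.05, other imprinted genes spread from -3.20 to 1.20, and all 10 mesenchymal stromal genes lie below -1.

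Cell type markers differed between the libraries in both directions. The 10 markers of mesenchymal stromal cells were all at least 2-fold lower, and their summed FPKM was 26.2 in the aGVHD_V library and 551 in the BMT library. Of these the leptin receptor Lepr and the BMP antagonist Grem1 were at 0 in the aGVHD_V library, and Cxcl12 and Kitl, factors that hold and feed stem cells, had an FPKM of 14.6 and 1.05 there, against 346 and 15.9 in the BMT library. Markers of bone-forming cells summed to 14.2 in the aGVHD_V library and 134 in the BMT library, with 7 of 7 measured genes at least 2-fold lower and 3 of 8 at 0 in the aGVHD_V library, among them Sp7. Endothelial markers summed to 15.4 in the aGVHD_V library and 78.6 in the BMT library, with 6 of 8 measured genes at least 2-fold lower and 4 at 0 in the aGVHD_V library, among them Cdh5 and Kdr. B-lineage markers summed to 1.505 in the aGVHD_V library and 75.7 in the BMT library, with 7 of 7 measured genes at least 2-fold lower and 6 of 8 at 0 in the aGVHD_V library, among them Cd79b. Stem and progenitor markers, of which 4 of 8 were measured and none differed by 2-fold, though 3 were at least 2-fold lower with the equal FPKM sum, summed to 21.9 in the aGVHD_V library and 33.8 in the BMT library, and Mecom and Hlf had no reads in either. Erythroid markers summed to 132121 in the aGVHD_V library and 37262 in the BMT library (4 of 8 at least 2-fold higher), megakaryocyte markers to 275 in the aGVHD_V library and 88.6 in the BMT library (4 of 7 measured genes at least 2-fold higher and 2 at least 2-fold lower), and neutrophil markers to 19545 in the aGVHD_V library and 14685 in the BMT library (0 of 8 past 2-fold). Among all measured genes, 19.4% passed 2-fold in the lower direction and 8.65% in the higher. With the equal FPKM sum these backgrounds were 33.8% for the lower direction and 6.18% for the higher. Under it 2 of 8 erythroid and 1 of 7 megakaryocyte genes passed 2-fold in the higher direction. The median of the neutrophil markers was 0.23 and turned to -0.35 under that scaling. Blood cell transcripts thus remained in both libraries after the sort. Tfrc, the gene of the sort marker CD71, had an FPKM of 269 in the aGVHD_V library and 160 in the BMT library. Ptprc, the gene of CD45, had an FPKM of 7.85 in the aGVHD_V library and 9.29 in the BMT library. In such pooled RNA, fewer cells of a type and less RNA per cell cannot be told apart, and the part of these cell types in the members' values was not tested.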

How the data were processed

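RNA sequencing of sorted bone marrow niche cells was used, with 1 aGVHD_V and 1 BMT library. The authors deposited FPKM, which their header names. edgeR 3.18.1 and the builds GRCm38 and mm10 are named in the submitters' processing notes, while aligner, counter and strand setting are not. The table has 1 more value column, which fits no label and was left out of every step.

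FPKM times gene length gave whole multiples of 1 step for 100.0% of values above 0 (tolerance 0.05), so reads per gene were recovered. The scaled library sizes were 10661688 reads (aGVHD_V) and 12127105 reads (BMT). The modal read number is the highest sum over a window of 7 values, leaving out read numbers under 4. Ratio intervals are conditional Clopper-Pearson intervals at 95%, and level intervals are Poisson intervals. Reads are not independent molecules. Where rows shared a symbol, that with the most reads was taken.

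The members and lists were chosen with earlier results of these data known. Named besides the members were, from each of 5 pathway lists, up to 4 measured genes with the largest absolute difference and the most abundant, the first 3 markers of each of 8 cell type lists, of which some are given by sums, and genes with reads within 100 kb of a member, up to 4 each. The genes of the sort markers CD45 and CD71 were named after their values were seen. Sequences are from RefSeq (GRCm38.p6), and exons from GENCODE release M21, where 98.3% of matched identifiers had the same start and end. 9 alternatives were computed. Python 3.11.15, numpy 2.4.6, pandas 2.3.3 and scipy 1.17.1 were used, and the scripts were tested on simulated data.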

Additional observations from a re-analysis of the deposited data

How the results depend on the processing

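Each of 9 alternatives changed 1 choice, with the measured genes kept except where the minimum itself changed. Of the measured members, 3 were at least 2-fold lower with a pseudocount of 0.1 (23.6% of all measured genes) and 3 with an equal FPKM sum per library (33.8%), but 0 with a pseudocount of 5 (3.89%), and none was at least 2-fold higher under the alternatives that gave a value. Their median difference was -1.37 with a pseudocount of 0.1, -0.30 with a pseudocount of 5, -1.53 with an equal FPKM sum, -0.97 with library sizes of all recovered reads, -0.94 with library sizes without hemoglobin, mitochondrial and ribosomal protein genes, and -0.46 over 6 members without a minimum. With an FPKM minimum of 5 no member was left. Plagl1 ranged from -1.86 to -0.36, Mest from -1.59 to -0.30, Grb10 from -1.47 to -0.31 and Cdkn1c from -0.56 to -0.02. A pseudocount cannot turn a sign, and each scaling tried moved the median gene lower in the aGVHD_V library. The kept sign of the detected members was therefore fixed in advance and is no check of direction. The equal FPKM sum moved the median gene by -0.56 and library sizes of all recovered reads moved it by -0.22. Other imprinted genes at least 2-fold lower numbered 11 with an equal FPKM sum (33.8%), 10 with a pseudocount of 0.1 (23.6%) and 1 with a pseudocount of 5 (3.89%). They numbered 9 with library sizes of all recovered reads (22.8%). Without hemoglobin, mitochondrial and ribosomal protein genes in the library sizes they also numbered 9 (21.1%). With an FPKM minimum of 5 they numbered 3 (10.7% of the 8000 genes left), and with unread genes at their floor also 3 (7.63%). Those at least 2-fold higher numbered 2 with a pseudocount of 0.1 (11.4%). They numbered 0 with an equal FPKM sum (6.18%) and 0 with library sizes of all recovered reads (6.61%). Their median turned to 0.008 over the 12 genes with an FPKM of 5 or more. Across the whole table, 503 were lower and 356 higher with a pseudocount of 5, 859 and 616 with an FPKM minimum of 5, 4374 were lower with an equal FPKM sum and 987 with unread genes at their floor. The causes were not tested. No paired analysis was possible because each group has 1 library, and for the same reason no replicate could be left out.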

Other observations

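Genes close to the members but outside the imprinted list gave further values. Next to H19, the mitochondrial ribosomal protein gene Mrpl23 had an FPKM of 15.7 in the aGVHD_V library and 5.39 in the BMT library, and Lsp1, a leukocyte actin-binding protein, had 27.0 in the aGVHD_V library and 18.1 in the BMT library. Prr33 had 17 reads in the aGVHD_V library and 0 in the BMT library, and the noncoding Gm33148 had 0 reads in the aGVHD_V library and 11 in the BMT library. Around Plagl1, the splicing factor gene Sf3b5 had 35.3 in the aGVHD_V library and 23.3 in the BMT library, the ribosome assembly gene Ltv1 had 21.3 in the aGVHD_V library and 17.2 in the BMT library, and the syntaxin gene Stx11 had 19.03 in the aGVHD_V library and 21.3 in the BMT library. Phactr2, a regulator of protein phosphatase, had 1.05 in the aGVHD_V library and 2.33 in the BMT library. Next to Mest, the centrosomal gene Cep41 had 0.980 in the aGVHD_V library and 1.04 in the BMT library. Grb10, Meg3 and Mirg had no neighbour with reads within 100 kb. Among the 37 mature microRNAs inside the noncoding members, 1 seed was shared, by mmu-miR-453 and mmu-miR-496a-5p of Mirg.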
